A study of Mus musculus with 2 samples.

Results

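A list of 54 interferon-stimulated genes, all found among the 31054 features, was followed through single-cell RNA sequencing of the rib callus. Its members were selected by measured values: the higher level of Isg15 and related genes in the Smo cKO library was known when the list was drawn up, so the direction of the list is a description of these libraries and not independent evidence. The list was divided into 43 genes that lean to type I interferon and 11 that lean to type II interferon, and into 7 roles.

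The study asked which Hedgehog signals large-scale bone repair needs. Calluses were taken at 4 days post injury (dpi), after resection of 3 mm of rib in mice of 8 to 12 weeks. The genotype was Sox9:CreER;R26:tdTomato;Smo flox/+ in the control group and Smo flox/flox, with the same transgenes, in the Smo cKO group, so both carried the Sox9-driven, tamoxifen-inducible Cre, the tdTomato reporter and at least 1 floxed allele of Smo, the Hedgehog signal transducer. Both had received 3 tamoxifen injections from day -7 to day -5. Calluses of 3 animals were pooled for each genotype, which left 1 library per genotype, most adjoining muscle was left behind and dead cells were removed. Recombination was limited to cells in which the Sox9:CreER transgene had been active.

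Interferons are secreted proteins that warn cells of infection or damage. Type I interferons signal through Ifnar1 and Ifnar2, and their responders often carry interferon-stimulated response elements (ISRE) in the promoter. Type II interferon, encoded by Ifng, signals through Ifngr1 and Ifngr2, and its responders often carry gamma-activated sites (GAS). Most responders answer to both kinds to some degree. In bone, interferons are known to restrain osteoclast formation.

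The promoters of members are shown first because interferon responders often carry these elements. RefSeq windows on GRCm38.p6, from 250 bases before to 50 bases after the transcription start, matched 43 of the 54 members. Windows of Ifi204, Ifi27l2a, Usp18, Oas2, Mx1, Rtp4, Zbp1, Dhx58, Parp9, Parp14 and Iigp1 were not used here. The ISRE letters, GAAA and GAAA with any pair of bases between, were searched on both strands and found in 22 members (51.2%), against 3.99% of the 27025 genes with a window. The GAS letters TTCNNNGAA were found in 10 members (23.3%), against 9.55% of all genes. Both were found in 6 members (14.0%), against 0.614% of all genes. The type I and type II leaning parts held the ISRE letters in 17 of 33 and 5 of 10 members, and the GAS letters in 6 of 33 and 4 of 10. The 7 stretches below, each of the 200 bases before the start, were chosen because they hold a match and span both kinds. They are written 5′ to 3′ on the strand of the gene, with matched letters in capitals.
Isg15, chr4:156200819-156201018, minus strand: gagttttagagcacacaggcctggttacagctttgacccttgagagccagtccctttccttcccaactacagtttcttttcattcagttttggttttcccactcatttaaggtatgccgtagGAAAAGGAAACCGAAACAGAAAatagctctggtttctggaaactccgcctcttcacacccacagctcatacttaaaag
Bst2, chr8:71537473-71537672, minus strand: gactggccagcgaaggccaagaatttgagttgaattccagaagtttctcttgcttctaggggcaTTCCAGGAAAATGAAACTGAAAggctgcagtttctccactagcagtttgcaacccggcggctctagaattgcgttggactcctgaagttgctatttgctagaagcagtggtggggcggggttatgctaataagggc
Ifit3, chr19:34583329-34583528, plus strand: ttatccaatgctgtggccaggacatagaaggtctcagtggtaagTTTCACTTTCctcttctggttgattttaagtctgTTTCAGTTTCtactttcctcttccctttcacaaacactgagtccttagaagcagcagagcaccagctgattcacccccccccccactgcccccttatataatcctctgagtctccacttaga
Ifit3b, chr19:34607757-34607956, plus strand: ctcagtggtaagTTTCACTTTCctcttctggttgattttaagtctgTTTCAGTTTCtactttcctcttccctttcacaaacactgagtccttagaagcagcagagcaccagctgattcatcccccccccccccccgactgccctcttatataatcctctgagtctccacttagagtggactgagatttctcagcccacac
Gbp3, chr3:142559844-142560043, plus strand: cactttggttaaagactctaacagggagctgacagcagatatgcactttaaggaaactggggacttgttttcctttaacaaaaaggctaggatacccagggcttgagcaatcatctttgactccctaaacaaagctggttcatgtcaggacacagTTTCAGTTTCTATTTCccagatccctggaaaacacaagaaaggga
Igtp, chr11:58199356-58199555, plus strand: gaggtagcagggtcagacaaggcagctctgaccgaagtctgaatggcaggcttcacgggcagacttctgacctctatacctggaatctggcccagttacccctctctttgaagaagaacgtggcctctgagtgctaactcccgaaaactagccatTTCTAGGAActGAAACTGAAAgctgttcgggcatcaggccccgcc
Irf1, chr11:53769814-53770013, plus strand: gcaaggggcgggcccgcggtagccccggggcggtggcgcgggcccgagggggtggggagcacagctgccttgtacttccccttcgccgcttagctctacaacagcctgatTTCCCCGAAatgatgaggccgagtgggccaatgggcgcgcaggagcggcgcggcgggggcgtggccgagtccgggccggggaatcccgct
The stretch of Isg15, a ubiquitin-like protein, held 3 overlapping ISRE matches. That of Bst2, which tethers budding virus to the cell surface, held 2 ISRE matches that overlapped each other and a GAS match. Ifit3 and Ifit3b, neighboring paralogs whose products bind viral RNA, each held 2 ISRE matches on the opposite strand. Gbp3, a guanylate-binding GTPase, held 2 overlapping matches on the opposite strand, Igtp, an immunity-related GTPase, held a GAS match just before an ISRE match, and Irf1, a transcription factor, held a GAS match alone. The window of Ifitm3 had its 2 ISRE matches downstream of the start, and that of Irf7 had neither motif. A match in these letters is a description and not a measured binding site.

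After cells with fewer than 200 detected genes or 10% or more mitochondrial UMIs (unique molecular identifiers, each standing for 1 captured transcript) were removed, 10057 control and 9507 Smo cKO cells remained, with medians of 8367 and 9092 UMIs. Cells were assigned to classes by marker genes that exclude all members, and each class is called "-like" for that reason. A class was cut from a score, and some cells lay near its limit, with a lead under 2-fold over the next class. These were 2.60% of control and 4.45% of Smo cKO connective-like cells, and 14.2% and 20.8% of osteoclast-like cells. The 6 main classes, given as control and Smo cKO cells, were connective-like (6418 and 5210), macrophage or monocyte-like (1475 and 1918), neutrophil-like (107 and 128), osteoclast-like (344 and 197), endothelial-like (67 and 70) and muscle-like (232 and 438). The libraries shared 599 barcodes among all kept cells, and 65.4% of the pairs fell in the same class, where the class sizes alone would give 38.9%. Values are therefore also given without the shared barcodes for the muscle-like sum, its type I leaning part and the single members that moved most. Smo itself was at 19.2 CPM (UMIs of a gene per 1000000 UMIs of the class) in control and 12.5 CPM in Smo cKO connective-like cells, but UMIs from the 3′ end do not show whether the floxed exon was present.

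In each of the 6 main classes the summed list was higher in Smo cKO cells. Connective-like cells had 1733 CPM in control against 3702 CPM in Smo cKO, which is 1.10 as a log2 ratio of Smo cKO over control (95% interval 1.09 to 1.10). Pairs of values are given in this order, control against Smo cKO. Macrophage or monocyte-like cells had 2962 against 7166 CPM (log2 1.27, 1.25 to 1.30). Muscle-like cells had 854 against 2603 CPM (1.61, 1.54 to 1.67), a ratio that was 1.69 without the shared barcodes and 1.19 under a stricter class limit. Endothelial-like cells had 2206 against 6517 CPM (1.56, 1.49 to 1.64), and osteoclast-like cells 1082 against 2983 CPM (1.46, 1.41 to 1.52). Neutrophil-like cells had 1812 against 3403 CPM (0.91, 0.74 to 1.08). Intervals cover counting error only, and with 1 library per genotype there was no replicate check and no test. Log2 ratios of single members with at least 10 CPM in a library also moved without the shared barcodes. Ifi204 moved from 1.74 to 2.56 in endothelial-like, Parp9 from 1.84 to 2.53 in muscle-like and Ifi27l2a from 2.23 to 2.47 in osteoclast-like cells. These were the largest moves there, and those in connective, macrophage or monocyte and neutrophil-like cells were at most 0.08.

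**Figure D1:**
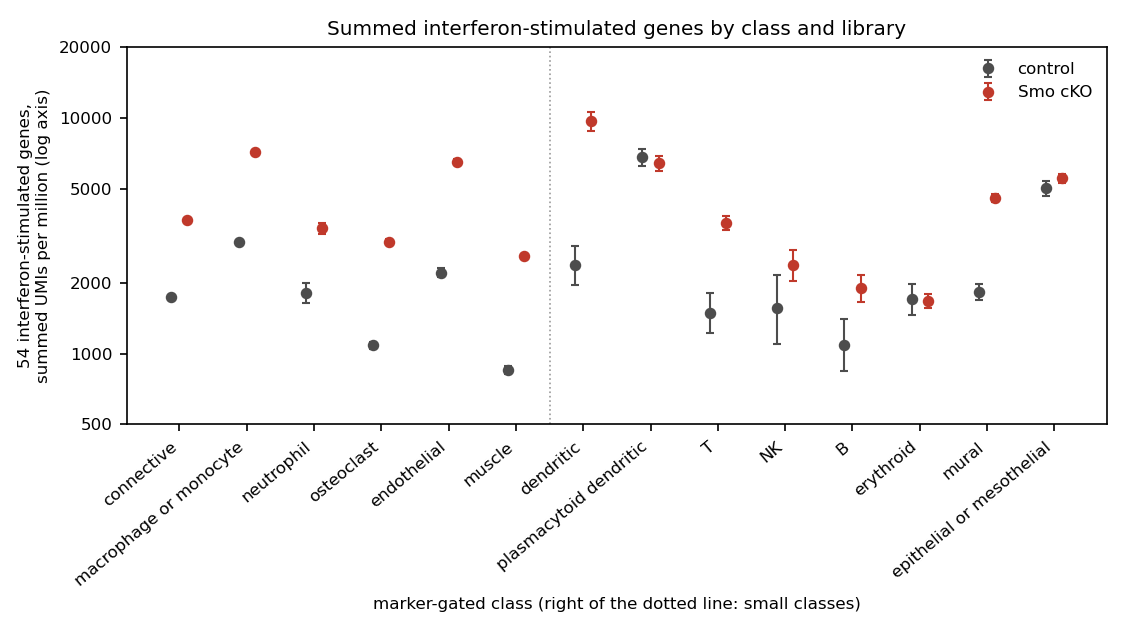
Summed CPM of the 54 members (log axis) in each marker-gated class, with control in grey, Smo cKO in red and exact 95% Poisson intervals as bars. The 6 main classes stand left of the dotted line and all sit higher in the Smo cKO library, while plasmacytoid dendritic, erythroid and epithelial or mesothelial cells, to its right, sit at similar levels in both.

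The level before any comparison differed between cell types. In the control library the list ranged among the main classes from 854 CPM in muscle-like cells to 2962 CPM in macrophage or monocyte-like cells. The order from low to high was muscle, osteoclast, connective, neutrophil, endothelial and macrophage or monocyte. In cells with at most 2000 detected genes, endothelial-like cells stood above macrophage or monocyte-like cells. The order rests in part on Ifitm3 alone, whose share of the control sum differed between classes. That share was 78.1% in connective-like, 72.6% in muscle-like and 65.4% in endothelial-like cells. It was 47.8% in neutrophil-like, 29.0% in osteoclast-like and 22.0% in macrophage or monocyte-like cells. The connective-like interval (1724 to 1742 CPM) lay within the neutrophil-like interval (1636 to 2002 CPM), so these neighbors were not separated by counting error. Among the small classes, plasmacytoid dendritic-like cells, specialized producers of type I interferon, stood highest in the control with 6798 CPM over 39 cells. Epithelial or mesothelial-like cells had 5025 CPM over 14 cells. The plasmacytoid level rested largely on Ifitm3, Ifi27l2a and Bst2. In control cells thinned at random to 1000 UMIs each, the mean was 7.24 list UMIs with these 3 members and 1.86 without them. Macrophage or monocyte-like cells had 3.18 and 1.61. Bst2 alone was found in 35 of 37 plasmacytoid dendritic-like cells.

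The sums of these high classes did not differ between libraries in the same way. Plasmacytoid dendritic-like cells had 6798 CPM against 6423 CPM over 24 Smo cKO cells (log2 -0.08, -0.24 to 0.07). That value depended on how the cells were chosen, since the cluster named for them held 3658 against 6561 CPM (log2 0.84). The sum also rested largely on Ifitm3, Ifi27l2a and Bst2. In 28 control and 24 Smo cKO cells thinned to 2000 UMIs, the mean was 12.6 against 13.1 list UMIs over all members. Without those 3 members it was 3.18 against 4.25, and Bst2 was found in 100% of these cells in both libraries. Epithelial or mesothelial-like cells had 5025 against 5537 CPM (0.14, 0.01 to 0.27), and erythroid-like cells 1698 against 1672 CPM (-0.02, -0.26 to 0.22). The erythroid-like control value rested on few cells: of 17 cells thinned to 1000 UMIs, the top 10% held 74.4% of the list UMIs. T-like cells had 1493 against 3584 CPM (1.26, 0.97 to 1.57) and mural-like cells 1828 against 4586 CPM (1.33, 1.20 to 1.45). Dendritic-like cells, with 11 cells in each library, had 2376 against 9676 CPM (2.03, 1.72 to 2.35). Clusters not named for a class gave smaller ratios for related cells. One led by MHC class II genes, with 237 control and 156 Smo cKO cells, had 3108 against 6956 CPM (1.16, 1.10 to 1.23). Another, with Gzma, Trbc2 and Cd3d among its leading genes (159 and 258 cells), had 2529 against 3448 CPM (0.45, 0.35 to 0.55). NK-like cells had a log2 ratio of 0.60 (0.07 to 1.16) and B-like cells 0.80 (0.39 to 1.22), from 36 and 63 list UMIs in the control.

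A few abundant members carried the rise of the sum. In the annotation of GRCm38, Ifitm3 lies at chr7:141009586-141010770, Ifi27l2a at chr12:103442167-103443680, Bst2 at chr8:71534255-71537456 and Isg15 at chr4:156199424-156200818. Ifitm3, a membrane protein that blocks viral entry, was the most abundant member and held 78.1% of the list's UMIs in control connective-like cells. It accounted for 43.3% of the net rise there, Ifi27l2a for 11.03%, Bst2 for 10.8% and Isg15 for 7.47%, together 72.6%. The same 4 genes reached 68.2% in macrophage or monocyte-like, 67.3% in osteoclast-like, 72.0% in endothelial-like and 70.0% in muscle-like cells. In macrophage or monocyte-like cells Ifi27l2a led with 36.7%, ahead of Ifitm3 with 21.3%. In neutrophil-like cells Ifitm3 and Ifi27l2a alone made up 82.5%. Without Ifitm3 the connective-like log2 ratio was 1.98 rather than 1.10, and the muscle-like ratio 2.34 rather than 1.61.

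**Figure D2:**
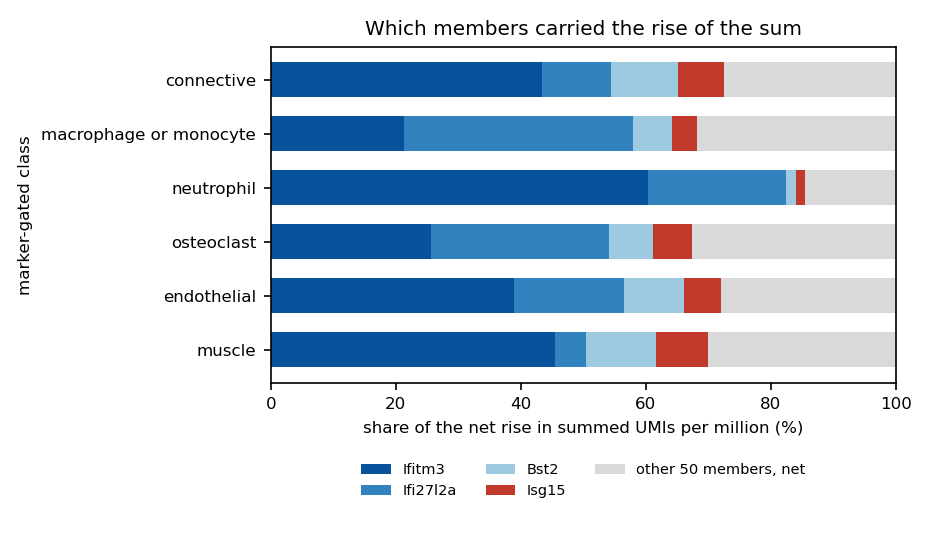
Share (%) of the net rise in summed CPM carried by Ifitm3, Ifi27l2a, Bst2, Isg15 and the other members together, in each of the 6 main classes. Ifitm3 takes 43.3% in connective-like and 21.3% in macrophage or monocyte-like cells, where Ifi27l2a takes 36.7%.

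Members were counted as higher at 2-fold or more with at least 10 CPM in a library. Of 35 members at that level in connective-like cells 28 were higher, beside 0.936% of all genes. In macrophage or monocyte-like cells 35 of 50 were higher, beside 1.3% of all genes. The counts were 26 of 32 in osteoclast-like cells (all genes 3.19%), 38 of 46 in endothelial-like cells (6.08%) and 31 of 34 in muscle-like cells (1.58%). No member was lower by 2-fold in those 5 classes, beside 0.261% (connective) to 4.69% (endothelial) of all genes. In neutrophil-like cells 12 of 24 were higher, where 16.6% of all genes were higher, and 6 of the 12 rested on fewer than 10 UMIs in both libraries together. Another 4 members (Ifih1, Irf9, Dtx3l and Trim25) were lower there, where 17.7% of all genes were lower. They rested on 10 UMIs or fewer in each library, with intervals that included 0. Since the list was chosen on this contrast, nothing is read from these counts. The median log2 ratio of the members at that level was 1.65 in connective-like cells, 1.32 in macrophage or monocyte-like, 0.58 in neutrophil-like, 1.98 in osteoclast-like, 1.80 in endothelial-like and 2.20 in muscle-like cells, and the medians of all genes lay between -0.11 and 0.07.

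Across the 6 classes, 7 members were higher in all of them: Ifi35, Ifi27l2a, Irf7, Bst2, Xaf1, Rtp4 and Samd9l. Of these, Ifi27l2a and Samd9l had intervals above 0 in all 6 classes, and the others in 5. In neutrophil-like cells only 3 of the 12 members counted as higher had an interval above 0. The number of classes was not counted for all genes, so nothing is read from how many members reach it. Isg15, Ifit1, Ifitm3, Zbp1, Ddx58 and Gbp3 were higher in 5. Ifit3, Ifi44, Irf9, Oasl2, Trim30a, Gbp7, Psmb9 and Lgals3bp were higher in 4, and Ifi204, Usp18, Rsad2, Parp9, Dtx3l, Eif2ak2, Sp100, Gbp2, Igtp, Iigp1, Psmb8 and Tap1 in 3. Stat2, Oasl1, Oas1a, Oas2, Oas3, Dhx58, Herc6, Irgm1, Slfn5 and Slfn2 were higher in 2, and Ifit2, Ifi47, Ifi203, Ifih1, Irf1, Mx1, Ddx60, Cmpk2, Parp14 and Trim25 in 1. Ifit3b was the only member higher in none, because it stayed under 10 CPM everywhere. It had 54 and 409 UMIs in connective-like cells, a log2 ratio of 2.99 (2.58 to 3.43). Reads that match Ifit3 and Ifit3b alike are not counted by the default counting, so the levels of these paralogs, and of the Oas1a, Ifi203 and Ifi204, Gbp and Slfn families, are uncertain.

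**Figure D3:**
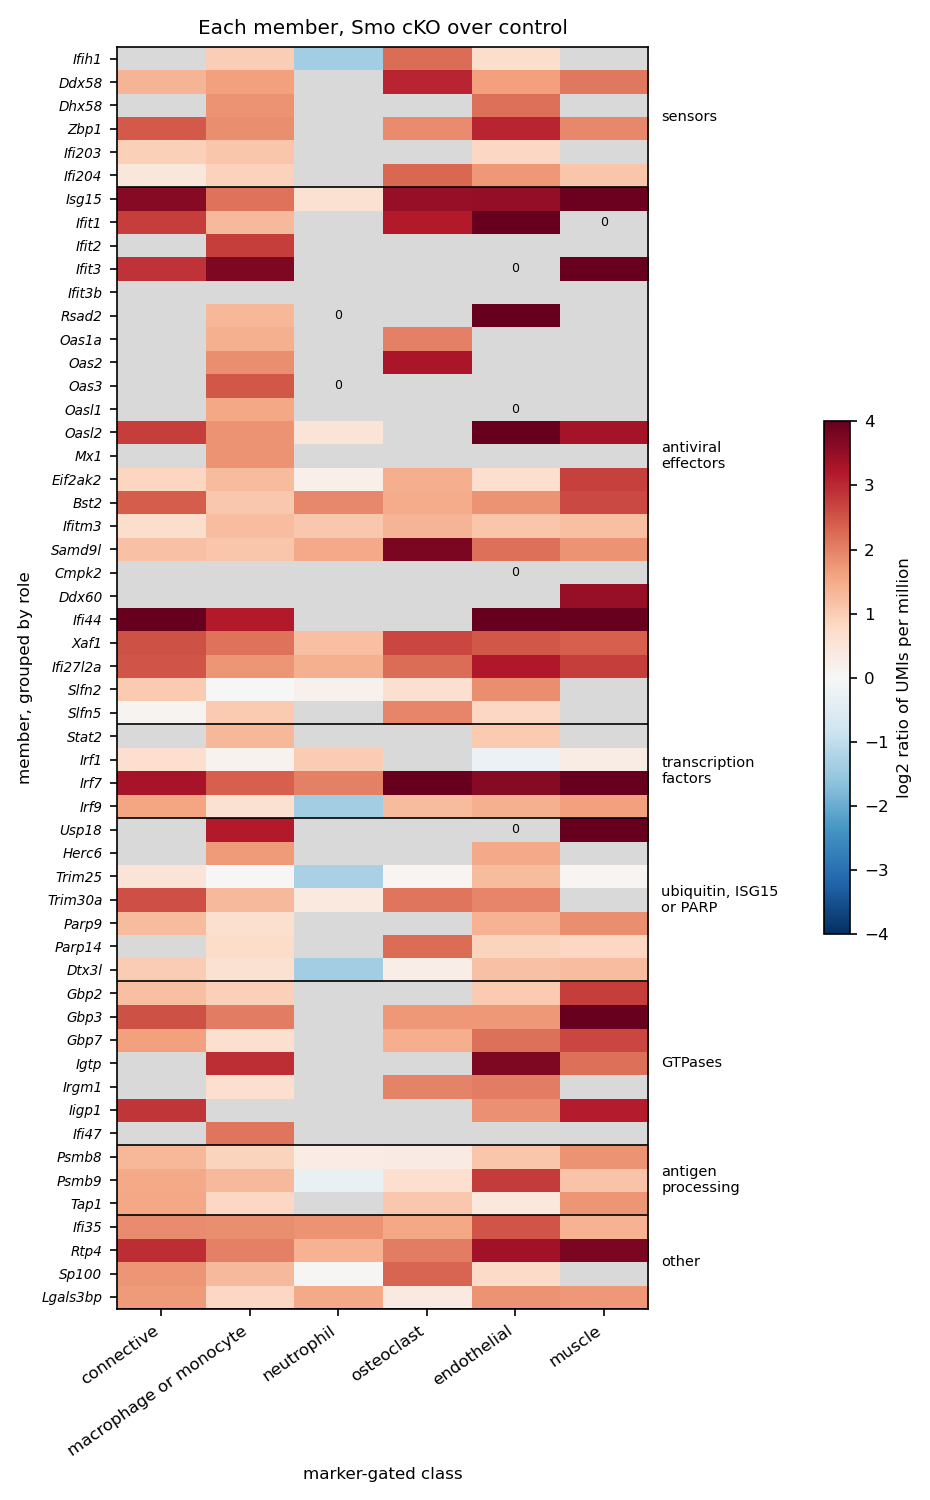
Log2 ratio of CPM, Smo cKO over control, for each of the 54 members (rows, grouped by role) in the 6 main classes (columns), with red for higher and blue for lower in Smo cKO. Grey marks members under 10 CPM in both libraries and 0 marks those with no UMI in the control. Colors stop at 4 in either direction. In every column 7 members, Irf7 and Bst2 among them, are higher by 2-fold or more, and red alone also marks smaller rises.

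Of the sensors of foreign nucleic acid, 2 of 4 were higher in connective-like cells and 4 of 6 in macrophage or monocyte-like cells, counting members with 10 CPM. Of all genes, 0.936% and 1.3% were higher in these classes. Since the list was chosen on this contrast, nothing is read from this or the other counts by role. Ddx58, which encodes the RNA sensor RIG-I, had 7.39 against 19.1 CPM in connective-like cells (log2 1.37, 1.24 to 1.51), and 2.42 against 19.9 CPM in osteoclast-like cells (3.03). Zbp1, a sensor of Z-form nucleic acid, was at 3.94 against 21.6 CPM in connective-like cells (2.45, 2.28 to 2.63). Ifi204, of a family of DNA sensors, was within 2-fold in connective-like cells, at 30.8 against 42.6 CPM (0.47, 0.39 to 0.54). The 6 sensors summed to a log2 ratio of 1.07 in connective-like and 1.24 in macrophage or monocyte-like cells.

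Of the antiviral effectors, 10 of 13 were higher in connective-like cells (all genes 0.936%) and 19 of 20 in macrophage or monocyte-like cells (1.3%). Of the 4 members with most UMIs, Isg15 had the largest ratio in connective-like cells. Its connective-like level was 12.7 against 160 CPM, from 1050 and 12587 UMIs (log2 3.65, 3.56 to 3.75). Muscle-like cells had 10.3 against 156 CPM (3.92, 3.37 to 4.53), endothelial-like cells 24.2 against 277 CPM (3.52, 2.86 to 4.26) and osteoclast-like cells 11.5 against 129 CPM (3.48, 3.00 to 4.01). In macrophage or monocyte-like cells, where the control was already at 49.1 CPM, it reached 220 CPM (2.16, 1.96 to 2.37). In neutrophil-like cells the interval included 0, at 42.1 against 64.9 CPM (0.62, -0.53 to 1.91). The neutrophil-like and macrophage or monocyte-like cells, with the smallest Isg15 ratios, also had the highest control CPM of the 6 classes. In control cells thinned to 1000 UMIs, Isg15 was found in 1 of 67 neutrophil-like (1.49%) and 3 of 64 endothelial-like cells (4.69%). That order of control levels thus depended on the measure. The control level is also the denominator of the ratio, so nothing is read from this order.

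Bst2 had 48.4 against 260 CPM in connective-like cells (2.43, 2.38 to 2.48) and 229 against 487 CPM in macrophage or monocyte-like cells (1.09, 0.99 to 1.19). Its log2 ratios were 1.48 in osteoclast-like, 1.79 in endothelial-like and 2.64 in muscle-like cells. Ifitm3 was higher in the Smo cKO library but within 2-fold in connective-like cells, at 1354 against 2206 CPM (0.70, 0.69 to 0.72), and reached 2-fold in the other 5 classes, with log2 ratios from 1.08 to 1.35. Ifi27l2a, of a family of small hydrophobic interferon-induced proteins, had 45.9 against 263 CPM in connective-like cells (2.52, 2.47 to 2.57) and 644 against 2188 CPM in macrophage or monocyte-like cells (1.76, 1.71 to 1.82), where it passed Ifitm3 in Smo cKO cells (1545 CPM) but not in control cells (651 CPM). Endothelial-like cells had the largest Ifi27l2a ratio, with 93.0 against 853 CPM (3.20, 2.86 to 3.56). Xaf1, a pro-apoptotic protein, had 6.496 against 37.6 CPM in connective-like cells (2.53, 2.40 to 2.67). Samd9l was highest in ratio in osteoclast-like cells, at 1.82 against 24.6 CPM (3.76, 2.56 to 5.26).

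Low-abundance effectors showed some of the largest ratios. Ifi44 was at 0.773 against 12.6 CPM in connective-like cells (4.03, 3.67 to 4.42). Ifit3 was at 3.43 against 45.8 CPM in macrophage or monocyte-like cells (3.74, 3.00 to 4.59), and Ifit1 was at 2.63 against 17.9 CPM in connective-like cells (2.76). Muscle-like cells had 0 Ifit1 UMIs in control against 134 in Smo cKO, which is at least 21.4-fold higher against the limit that a count of 0 allows (3 UMIs in that class). Rsad2, which encodes viperin, had 7.25 against 134 CPM in endothelial-like cells (4.21, 3.04 to 5.69) and 35.9 against 90.6 CPM in macrophage or monocyte-like cells (1.34). The 2',5'-oligoadenylate synthetase genes Oas1a, Oas2 and Oas3 stayed under 10 CPM in connective-like cells, and in macrophage or monocyte-like cells they had log2 ratios from 1.41 to 2.48. Mx1 reached 10.3 CPM in Smo cKO macrophage or monocyte-like cells and stayed under 10 CPM in the other main classes.

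Some effectors stayed within 2-fold. Slfn2, a gene of quiescence in immune cells, was at 408 against 406 CPM in macrophage or monocyte-like cells (-0.01, -0.09 to 0.08) while it stood at 8.30 against 17.0 CPM in connective-like cells (1.04, 0.90 to 1.17). Slfn5 was at 13.1 against 14.2 CPM in connective-like cells (0.11, -0.01 to 0.24).

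Of the transcription factors, 2 of 3 were higher in connective-like cells (all genes 0.936%) and 2 of 4 in macrophage or monocyte-like cells (1.3%). Irf7, the amplifier of type I interferon production, had 3.85 against 37.6 CPM in connective-like cells (3.29, 3.12 to 3.46). It had 32.7 against 173 CPM in macrophage or monocyte-like cells (2.40, 2.15 to 2.66) and 1.14 against 36.8 CPM in muscle-like cells (5.01, 3.44 to 7.30). Irf9 was at 4.70 against 14.0 CPM in connective-like cells (1.57). Irf1, which is induced mainly through GAS elements, stayed within 2-fold in 5 of the 6 classes. In osteoclast-like cells, 1 of these, it was under 10 CPM, at 6.36 against 5.88 CPM. Irf1 had 12.9 against 20.6 CPM in connective-like cells (0.68, 0.57 to 0.80) and 21.7 against 23.8 CPM in macrophage or monocyte-like cells (0.14, -0.23 to 0.51). In endothelial-like cells Irf1 was at 36.2 against 31.1 CPM (-0.22, -1.05 to 0.59), and in neutrophil-like cells, from 4 and 14 UMIs, at 18.7 against 37.8 CPM (1.01, -0.66 to 3.08).

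In the group of ubiquitin and PARP regulators 3 of 4 were higher in connective-like cells (all genes 0.936%). In macrophage or monocyte-like cells 3 of 7 were higher (all genes 1.3%). Usp18, the protease that removes ISG15 and dampens the type I receptor, was nearly absent from the control, with 27 UMIs against 784 UMIs in connective-like cells. That was 0.326 against 9.95 CPM, a log2 ratio of 4.93 (4.38 to 5.54), just under the level needed to be counted. In macrophage or monocyte-like cells it was at 2.51 against 22.5 CPM (3.16, 2.29 to 4.19). Trim25, a ubiquitin ligase for RIG-I, had 91.6 against 92.7 CPM in macrophage or monocyte-like cells (0.02, -0.16 to 0.20) and 53.9 against 57.4 CPM in osteoclast-like cells (0.09). Trim30a was at 3.39 against 20.4 CPM in connective-like cells (2.59).

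The GTPases and antigen-processing genes, with Irf1, make up the type II leaning part. All 4 GTPases with 10 CPM and all 3 antigen-processing genes were higher in connective-like cells (all genes 0.936%). In macrophage or monocyte-like cells 3 of 6 and 1 of 3 were higher (all genes 1.3%). Gbp3 had 2.87 against 16.7 CPM in connective-like cells (2.54, 2.34 to 2.74) and 0.761 against 18.9 CPM in muscle-like cells (4.64, 2.75 to 7.70). Igtp was at 1.08 against 9.26 CPM in connective-like cells (3.11, 2.79 to 3.44), and Iigp1 at 1.76 against 12.8 CPM (2.86, 2.61 to 3.12). Psmb8, an immunoproteasome subunit and the most abundant gene of that part, had 27.1 against 67.6 CPM in connective-like cells (1.32, 1.25 to 1.39) and 160 against 199 CPM in osteoclast-like cells (0.32, 0.14 to 0.50).

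The remaining 4 members, of other roles, were all higher in connective-like cells (all genes 0.936%). In macrophage or monocyte-like cells 3 of 4 were higher (all genes 1.3%). Lgals3bp, a secreted glycoprotein, had 21.0 against 67.8 CPM in connective-like cells (1.69, 1.61 to 1.77) but 56.6 against 73.2 CPM in osteoclast-like cells (0.37, 0.07 to 0.67). Rtp4, a receptor-transporting protein, had 25.4 against 104 CPM in osteoclast-like cells (2.04, 1.68 to 2.41), the fifth largest rise there.

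The order of the type I and type II leaning parts depended on Ifitm3. Over all members of each part, the type II leaning part had the larger ratio in connective-like cells, 1.48 (1.44 to 1.53) against 1.08 (1.07 to 1.09). Without Ifitm3 the type I leaning part was at 2.07 (2.05 to 2.09) there, above the type II leaning part, and the order also turned in cells with at most 2000 detected genes (0.94 for type I and 0.54 for type II). The median members gave that order as well, 1.77 for the type I and 1.52 for the type II leaning part. In muscle-like cells the intervals overlapped, at 1.59 (1.52 to 1.66) for type I and 1.89 (1.62 to 2.17) for type II, and without Ifitm3 the type I leaning part was at 2.44 (2.30 to 2.57).

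In macrophage or monocyte-like cells the type I leaning part had the larger ratio with Ifitm3, 1.30 (1.27 to 1.33) against 0.97 (0.87 to 1.07), and without it, 1.31. In osteoclast-like cells it had 1.63 (1.57 to 1.69), or 1.77 without Ifitm3, and the type II leaning part 0.62 (0.49 to 0.76), which was -0.070 in cells with at most 2000 detected genes. Endothelial-like cells had 1.59 (1.51 to 1.67), or 2.33 without Ifitm3, and 1.20 (0.90 to 1.505). In neutrophil-like cells the intervals overlapped (0.95 and 0.40). When Ifitm3 and the genes strongly induced by both interferons were set aside, the type II leaning part had 3 genes left. The connective-like ratios were then 2.09 (2.07 to 2.11) for type I and 2.09 (1.96 to 2.23) for type II, and the intervals of both parts overlapped in each of the 6 main classes.

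**Figure D4:**
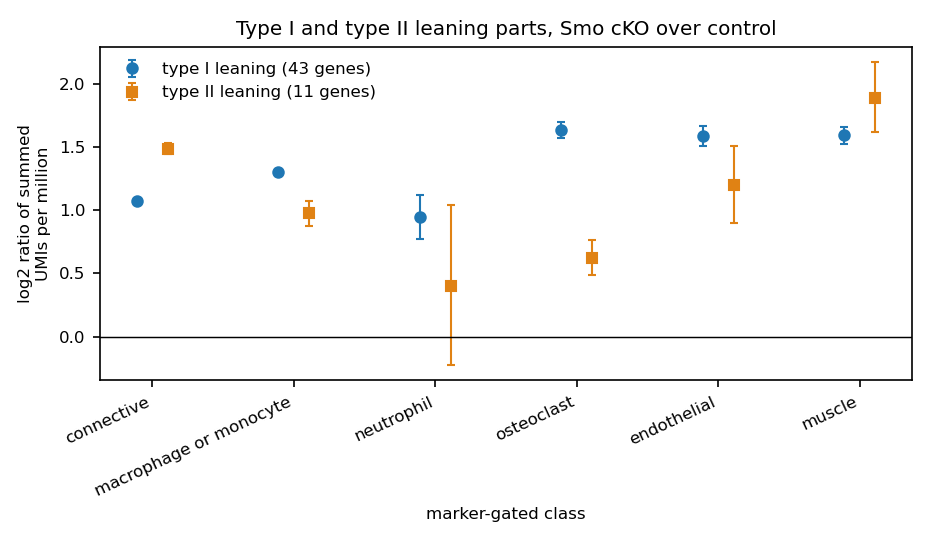
Log2 ratio of summed CPM, Smo cKO over control, for the type I leaning (blue circles) and type II leaning (orange squares) members in the 6 main classes, with 95% counting intervals as bars. The type II leaning part lies below the type I leaning part in osteoclast-like cells (0.62 and 1.63) and above it in connective-like cells (1.48 and 1.08), where without Ifitm3, not plotted, the type I leaning part would stand at 2.07.

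To compare single cells, cells were thinned to 1000 UMIs so that depth was equal. In connective-like cells Isg15 was then found in 1.06% of 6106 control and 10.9% of 5045 Smo cKO cells, a difference of 9.80 points (8.92 to 10.7), where the shares before thinning were 7.31% and 47.7% at medians of 10907.5 and 13404 UMIs. Endothelial-like cells had 4.69% and 29.4%, and muscle-like cells 0.913% and 12.9%. No callus class is known to lack Isg15 altogether. Erythroid-like cells, taken as a comparison for free RNA, had 2 of 17 cells (11.8%, 1.46 to 36.4%) and 13 of 99 cells (13.1%, 7.18 to 21.4%). Their control share rests on 2 cells and lies above the 1.06% of connective-like cells, so it sets no level for free RNA. The part of free RNA in these shares was not tested, and they are not read as shares of expressing cells. The UMIs of Ifi27l2a per Ifitm3 UMI were 0.0339 in control and 0.119 in Smo cKO connective-like cells. They were 0.0239 and 0.0705 in muscle-like, and 0.989 and 1.42 in macrophage or monocyte-like cells. These values differed between classes in the control too, so nothing about free RNA is read from them.

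At 2000 UMIs per cell, without the 3 most abundant members, at least 1 list UMI was found in 41.7% of control and 69.0% of Smo cKO connective-like cells, and at least 5 in 0.632% and 10.8%. Among macrophage or monocyte-like cells at least 5 were found in 17.8% and 53.5%. At 1000 UMIs and over all members, the top 10% of connective-like cells held 29.6% of the list UMIs in control and 28.0% in Smo cKO cells. The median connective-like cell had 1 list UMI in control against 3 in Smo cKO.

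**Figure D5:**
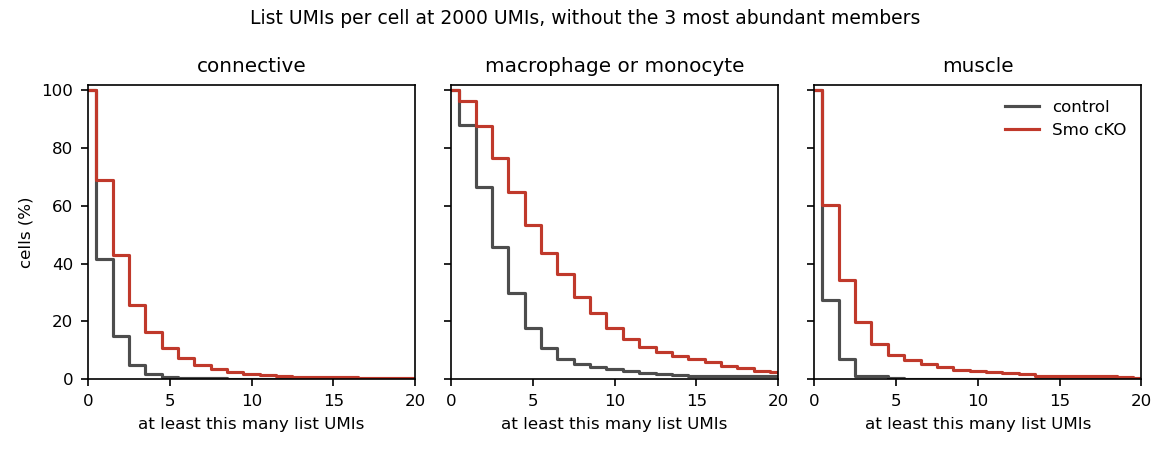
Percent of cells (vertical axis) with at least a given number of list UMIs (horizontal axis) after thinning every cell to 2000 UMIs, without the 3 most abundant members, with control in grey and Smo cKO in red. At 5 UMIs the curves stand at 0.632% and 10.8% for connective-like cells, and at 17.8% and 53.5% for macrophage or monocyte-like cells.

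Other values moved along with the list in some classes. Hemoglobin RNA, a sign of blood in the suspension, had a log2 ratio of 0.94 in connective-like, 0.64 in macrophage or monocyte-like, 0.81 in neutrophil-like and 1.04 in osteoclast-like cells, and of -0.07 in endothelial-like and -0.47 in muscle-like cells. Its part in the list values was not tested. A connective cluster with a median of 617.5 UMIs per cell had list levels of 2529 against 2466 CPM (log2 -0.04, -0.23 to 0.16), unlike the deeper connective-like cells. Another connective cluster, led by Serpinb2 and Dlk1, held 1 control and 114 Smo cKO cells, and without it the connective-like log2 ratio was 1.08 and 28 members were higher.

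The Cre reporter allowed a split within connective-like cells. tdTomato was detected in 48 control and 112 Smo cKO cells, and the list was at 1845 against 3863 CPM in them (log2 1.07, 0.98 to 1.15). In cells without a tdTomato UMI it was at 1732 against 3697 CPM (1.09, 1.08 to 1.10). The intervals of these log2 ratios overlapped. The level of the list was higher in the cells with tdTomato in both libraries, but its intervals cover counting error and not the spread over cells. Cells with tdTomato were also deeper, with medians of 13950.5 and 10893 UMIs with and without it in control. In Smo cKO these medians were 20044.5 and 13260.5 UMIs. Control Isg15 went the other way, at 6.62 CPM with tdTomato and 12.7 CPM without. Isg15 was at 6.62 against 191 CPM in the cells with tdTomato, from 5 and 455 UMIs (4.85, 3.62 to 6.48), and had a log2 ratio of 3.64 (3.55 to 3.73) in the others. Few cells had a tdTomato UMI, so a cell without one may still carry the recombined allele.

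Other genes of the pathway, which are not members, were measured in the same way. Interferon ligands had few UMIs: over all kept cells Ifnb1 had 12 and 48, Ifng 9 and 45, and 11 of the 17 type I and III ligand genes had none in either library. Ifnb1 and Ifng thus had more UMIs in the Smo cKO library, in counts pooled over cell types. That library also held more T-like (39 and 119) and NK-like cells (10 and 25), and the part of cell numbers was not tested. The receptors had a summed log2 ratio of 0.11 in connective-like cells, where 0 of 5 measured genes passed 2-fold. None of 4 inhibitors did, with Socs1 at 15.9 against 26.2 CPM (0.72). Of all genes there, 0.936% were higher and 0.261% lower, so nothing is read from these counts.

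Responders outside the members were also listed with earlier results of these data known, so their direction is a description and no independent check. Of 13 other type I leaning responders measured in connective-like cells 7 were higher and none lower, beside 0.936% of all genes higher and 0.261% lower. Among them were Ly6e at 143 against 353 CPM (1.31) and the chemokine gene Cxcl10 at 23.6 against 79.5 CPM (1.75). Ifitm2, next to Ifitm3 in family, was at 756 against 852 CPM (0.17). Of 4 type II leaning responders 1 was higher, the chemokine gene Cxcl9, at 3.21 against 32.5 CPM (3.34, 3.16 to 3.53), and Nos2 was at 18.5 against 18.6 CPM. The MHC class I group had a summed log2 ratio of 0.97 with B2m at 390 against 911 CPM (1.22). The MHC class II group is induced mainly by type II interferon. Its log2 ratios were -0.56 in connective-like, -0.78 in macrophage or monocyte-like and -2.14 in muscle-like cells. No gene of it was 2-fold lower in the first pair of classes, beside 0.261% and 0.409% of all genes. A cluster led by the class II genes H2-Eb1, H2-Ab1 and H2-Aa held 237 control and 156 Smo cKO cells. The part of cell numbers and of free RNA in these ratios was not tested.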

How the data were processed

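Single-cell RNA libraries (10x) from pooled rib calluses of 1 control and 1 Smo cKO group were used. The authors deposited raw UMI counts per gene and cell, made with Cell Ranger 3.0.2 on mm10 per the labels. Cells with 200 or more detected genes and under 10% of UMIs on the 13 mt- genes were kept. The study also left out cells with more than 2000 detected genes, a limit used here only as an alternative. It would remove 5834 of 10057 control and 5648 of 9507 Smo cKO kept cells. A marker counted in a cell at 50% or more of its mean CPM over both libraries. A cell was put in the class for which the greatest share of markers counted, given 3 or more and a lead of 1.5-fold; erythroid cells also needed 5% hemoglobin UMIs. Members and pathway genes were kept out of the clustering. Doublets were not removed. Scrublet marked 0 control and 2 Smo cKO cells, under the 0.5% below which a caller was taken to have failed. The share of doublets is therefore unknown, and they may remain in the classes.

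UMIs were summed per class and library. CPM has exact Poisson intervals, log2 ratios exact intervals from the binomial split of both counts, shares Clopper-Pearson intervals and differences of shares Newcombe intervals, all at 95%. Cells of 1 library are not replicates, so there is no test. The kept cells held 104189394 and 110863278 UMIs. UMIs count 3′ ends, so levels of different genes are compared per transcript captured and not per length.

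The members, roles and other lists were chosen with earlier results of these data known. Named members are the 5 with the largest rise in each class, the 10 with most UMIs and examples of each role; the examples and the printed promoters were picked after their values were seen. Calculations used Python 3.11.15, numpy 2.4.6, scipy 1.17.1, pandas 2.3.3 and scanpy 1.11.5, and the ratio rule was tested on simulated data. Coordinates and promoters are on GRCm38. Some pathway genes are not reported here.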

Additional observations from a re-analysis of the deposited data

How the results depend on the processing

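No paired analysis was possible because each genotype has 1 library, and for the same reason no replicate could be left out. Over 181 alternatives, 111 stayed within the counting interval (or 1.5 times a count), 69 moved out of it and 1 changed sign; the cause was not tested. The summed list stayed higher in Smo cKO in all 6 main classes under every alternative run, with log2 ratios from 0.92 to 1.98 in connective-like cells and from 0.43 to 1.03 in neutrophil-like cells. No clusters value exists for osteoclasts, whose cluster stayed unnamed.

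With at most 2000 detected genes, the limit of the study, the connective-like sum was 0.92 and its count 18. Its type I leaning part was 0.94 and its type II leaning part 0.54. Osteoclast-like cells had 1.26, 13, 1.45 and -0.070, the last with its sign changed, and the endothelial-like type II leaning part was 0.27. The share of all genes past 2-fold was not counted in these cells, so nothing is read from the counts of 18 and 13. Control levels were then 1940 (connective), 3193 (macrophage or monocyte), 1216 (osteoclast), 3270 (endothelial) and 717 CPM (muscle). With classes from clusters, sums were 1.48 (endothelial) and 1.31 (muscle), and control levels 3236 (macrophage or monocyte) and 1191 CPM (muscle). The stricter gate gave 1.24 (osteoclast) and 1.19 (muscle). Without the 5% of cells with most UMIs, sums were 1.10 (connective) and 1.79 (muscle), and thinning gave 1.11 (connective). Scaling to the median gene ratio gave 1.07 (connective), 1.33 (macrophage or monocyte), 1.39 (osteoclast) and 1.53 (muscle), and antiviral effectors 1.00 and 1.38 in the first 2 classes.

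Without Isg15 sums were 1.04 (connective) and 1.54 (muscle). Without the 3 members with most UMIs they were 1.77, 1.03, 0.43, 1.23, 1.97 and 2.23 for connective, macrophage or monocyte, neutrophil, osteoclast, endothelial and muscle-like cells. The type II leaning part without genes of both kinds was 2.09, 1.40, 1.21, 1.40, 1.73 and 2.86 in that order. Counts at 50 CPM were 5, 16, 3, 5, 13 and 5, and with no minimum beyond 1 UMI 46 (connective), 25 (neutrophil), 44 (osteoclast) and 47 (muscle). Fewer members reach 50 CPM than 10 CPM. The share of all genes was not counted at these minimums, so nothing is read from these counts. At 2000 UMIs the Isg15 difference was 16.9 points (connective) and 17.6 points (macrophage or monocyte). Chosen after seeing the data: without Ifitm3 sums were 1.98 (connective), 0.74 (neutrophil), 2.15 (endothelial) and 2.34 (muscle), and the type I leaning part 2.07 (connective), 1.77 (osteoclast), 2.33 (endothelial) and 2.44 (muscle), or 2.09, 1.78, 2.36 and 2.48 when genes of both kinds were also left out; without the shared barcodes muscle-like cells had 1.69 and a type I leaning part of 1.67; without the Serpinb2 and Dlk1 cluster the connective-like sum was 1.08.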
